A study of Homo sapiens with 12 samples.

Results

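The nuclear genes for the protein subunits of the oxidative phosphorylation complexes were examined in TRPC1-silenced Huh7 cells. Members were chosen by gene symbol alone, as all bead probes annotated to NDUFA, NDUFB, NDUFC, NDUFS, NDUFV, SDH, UQCR, COX and ATP5 subunit genes or to CYC1 or CYCS, without 3 probes of pseudogenes and without assembly factors. This gave 103 probes of 76 genes, of 48803 probes on the array. Of these, 87 probes of 65 genes were detected above the negative controls (detection p under 0.01) on at least 5 of 12 arrays and were tested, among 13102 tested probes in all.

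Huh7 is an established human cell line of a well-differentiated liver cancer. The siTRPC1 cells (6 samples) were transfected for 48 h with 2 µg of a vector that carries the TRPC1 silencing sequence and GFP, and the control cells (6 samples) with the same amount of the empty vector. Transfection was transient and incomplete, so each sample holds some cells without vector. The comparison asks which transcripts differ when TRPC1, a plasma membrane channel linked to store-operated Ca2+ entry, is lowered. Array 5 of each group was left out of the tests, so that 5 siTRPC1 and 5 control arrays (numbers 1, 2, 3, 4 and 6) were compared. The study had left these samples out for a low correlation between TRPC1 by array and by PCR. Values are log2 intensities after background correction and quantile normalization, and a log2FC is the siTRPC1 mean minus the control mean. Nothing states that the arrays came from separate cultures, so the spread behind the p-values is that between arrays and may be technical.

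Oxidative phosphorylation takes place in the inner mitochondrial membrane. Complex I (NADH dehydrogenase) and complex II (succinate dehydrogenase) pass electrons to ubiquinone, complex III hands them to cytochrome c and complex IV (cytochrome c oxidase) to oxygen. Complexes I, III and IV pump protons, and complex V (ATP synthase) uses the gradient to make ATP. The mitochondrial genome encodes a few core subunits, which are not among the members. The others are encoded in the nucleus, and hepatocytes, which are rich in mitochondria, express them highly. NRF1, the ETS-family factor GABP and YY1 are transcription factors known to act on many of their promoters.

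No subunit passed the test. In limma, 0 of the 87 member probes were called (adjusted p under 0.05), against 1.25% of all tested probes (164 of 13102), and the lowest adjusted p of a member was 0.084. With all 12 arrays it was 0 of 87 again, against 1.58%. At an unadjusted p under 0.05 there were 6 member probes (6.9%), against 16.9% of all tested probes. Of the 6, 4 were higher in siTRPC1 (9.17% of all tested probes) and 2 lower (7.69%). A Rank Product test at a percentage of false positives of 5% called 0 members and 0.107% of all probes. The differences were small with quantile normalization. The median absolute log2FC was 0.06 over the member probes and 0.11 over all tested probes, and the median standard error was 0.08 and 0.10. For 54 of 87 member probes the 95% interval lay within 0.25 of 0 on the log2 scale (a change of at most 18.9% up or 15.9% down), against 25.2% of all tested probes. Member probes were also bright, with 62 of 87 in the brightest 25% of tested probes, where intervals are narrower. The intervals hold for this scaling, and with arrays centred on their medians the log2FC of 10 of the 87 probes lay outside them, among them ATP5F1B (-0.20), COX7A2 (-0.17) and COX5A (-0.16).

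**Figure D1:**
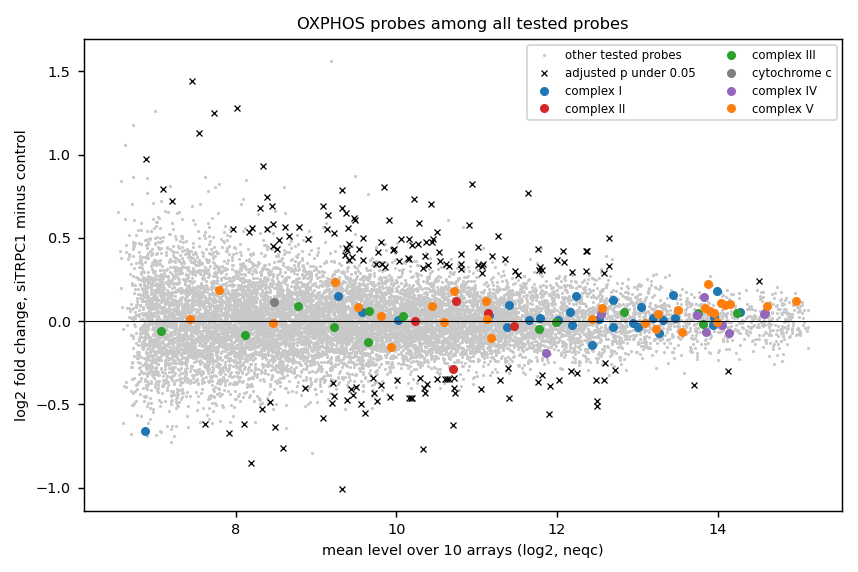
The log2FC (siTRPC1 minus control, y axis) is plotted against the mean log2 level over 10 arrays (x axis), with member probes as coloured dots by complex, other tested probes in grey and probes with an adjusted p under 0.05 as crosses. No member is among the 164 crosses, and most members lie at the bright end close to 0.

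The direction of the members as a group depended on the scaling. With quantile normalization 56 of 87 probes had a log2FC above 0 (64.4%, against 49.3% of all tested probes), and the median over the brightest probe of each of the 65 genes was 0.02 (-0.0024 over all tested probes). With the arrays centred on their medians instead, 28 of 87 were above 0 (32.2%, against 44.3%) and the median over the genes was -0.06 (-0.02 over all tested probes). The gap between the scalings widened with brightness. For the 17 member probes with a level under 10 the median log2FC was 0.03 with quantile normalization and 0.02 with centring. The 11 member probes at 14 or more had 0.06 and -0.09, and the 327 tested probes of that level had 0.00 and -0.20. Without control arrays 1 and 2, the median over the 65 genes was -0.01. These arrays had the lowest mean intensities, 480 and 457, against 566 to 688 on the other arrays. No direction of the subunits as a group is therefore given.

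**Figure D2:**
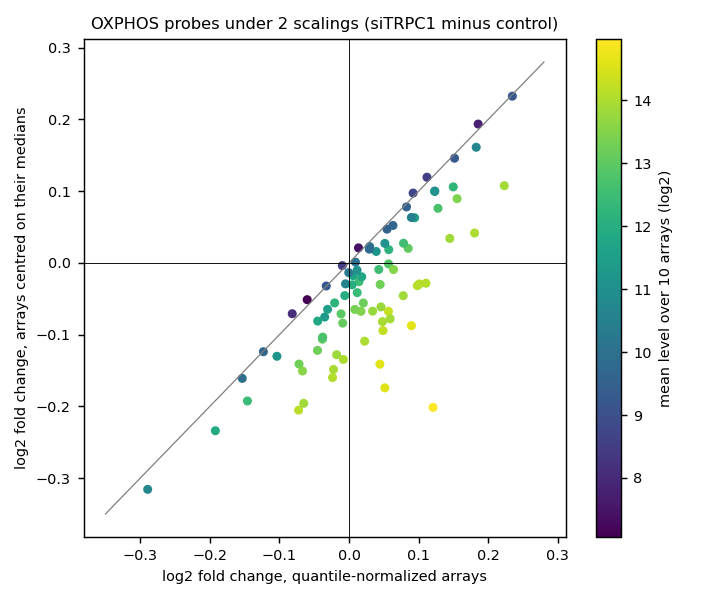
Each point is a member probe (NDUFV3 left out for scale), with its log2FC after quantile normalization on the x axis and after centring on array medians on the y axis, coloured by mean log2 level. Dim probes lie on the line of equality, and the brightest lie below it, with values under 0 on the y axis for all 11 probes at a level of 14 or more.

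Among single members, NDUFA8 and a probe of ATP5PF were the only ones whose siTRPC1 and control arrays did not overlap, both with siTRPC1 above control. This is 2 of 87 member probes (2.3%), against 3.85% of all tested probes, made up of 2.08% with siTRPC1 above control and 1.77% below. SDHD had the most negative log2FC of the members detected on all 12 arrays. NDUFA8 and ATP5PF were picked after their values were seen. The promoters of these 3 genes are shown because SDHD has that lowest value and the other two are those without overlap, and because all hold letters of factors that act on genes of this class. Capitals mark matches, on either strand, to the NRF1 motif (GCGCA and GCGC with 1 base between), CCGGAAG (the ETS core) and AAGATGGCG (YY1). Sequences are from RefSeq (GRCh38.p14), 5′ to 3′ on the strand of the gene, with 138 bases before and 12 after the start: SDHD at chr11:112086735-112086884 on the plus strand, NDUFA8 at chr9:122159768-122159917 on the minus strand and ATP5PF at chr21:25735043-25735192 on the minus strand.
SDHD: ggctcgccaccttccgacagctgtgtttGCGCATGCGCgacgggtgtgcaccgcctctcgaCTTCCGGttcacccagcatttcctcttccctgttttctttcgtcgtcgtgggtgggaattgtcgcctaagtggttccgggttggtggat
NDUFA8: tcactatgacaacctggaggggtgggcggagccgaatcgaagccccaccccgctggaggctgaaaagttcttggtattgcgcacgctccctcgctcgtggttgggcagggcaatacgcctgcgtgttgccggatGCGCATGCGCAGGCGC
ATP5PF: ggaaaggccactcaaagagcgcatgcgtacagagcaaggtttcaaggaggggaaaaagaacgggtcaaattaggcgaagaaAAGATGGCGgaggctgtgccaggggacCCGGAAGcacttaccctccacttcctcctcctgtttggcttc
In SDHD the NRF1 match begins 110 bases and the ETS match 77 bases before the start. In NDUFA8 a pair of overlapping NRF1 matches lies over the start, and in ATP5PF the YY1 and ETS matches begin 57 and 30 bases before it.

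Such letters were common among the members as a whole. Promoter windows of 300 bases were matched by gene ID for 63 of the 76 genes (75 windows, since some genes have several). The NRF1 letters were found in 21.3% of the member windows against 5.78% of all 35116 windows, the ETS core in 26.7% against 10.3% and the YY1 letters in 10.7% against 1.75%. At least 1 of the 3 was present in 49.3% of the member windows against 16.1% of all windows. Counted by gene, this was 36 of 63 genes, and no count by gene over all windows is given. The 35116 windows were not limited to tested genes, so the contrast may not be particular to these subunits. A match describes letters and not a bound site.

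Complex I was represented by 32 genes, of which 26 were tested on 29 probes. Of the 26, 17 had a log2FC above 0 and 9 below, with a median of 0.01, and none passed the test. With arrays centred on their medians 10 of the 26 were above 0. Of the tested core subunits on the path of electrons from NADH, NDUFV1, NDUFS8, NDUFS3 and NDUFS7 had values within 0.1 of 0 with quantile normalization. The core subunit NDUFV2, at 0.16, did not. With centred arrays NDUFV1 had -0.07, NDUFS8 -0.11, NDUFS3 -0.10 and NDUFS7 0.06. NDUFV1, which binds NADH and FMN, had a log2FC of -0.01 (95% interval -0.16 to 0.14), and the iron-sulphur protein NDUFS8 0.02 (-0.11 to 0.16). NDUFS3 had -0.04 (-0.17 to 0.09) and NDUFS7, which lies at the ubiquinone site, 0.09 (-0.09 to 0.27).

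NDUFV2, an iron-sulphur subunit of the NADH-binding part, had 13.58, 13.50, 13.58, 13.49 and 13.45 in siTRPC1 arrays 1, 2, 3, 4 and 6, against 13.10, 13.21, 13.57, 13.52 and 13.43 in the control arrays. Control arrays 1 and 2 were the lowest, and control array 6 lay just below the siTRPC1 range. The log2FC was 0.16 (SE 0.08, adjusted p = 0.33 in limma), 0.09 with centred arrays and 0.02 without control arrays 1 and 2.

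NDUFA8, an accessory subunit of the intermembrane space side, had 12.44, 12.28, 12.25, 12.32 and 12.24 in siTRPC1 and 12.21, 12.14, 12.02, 12.20 and 12.20 in control arrays. Every siTRPC1 array was above every control array, by 0.03 at the closest. The log2FC was 0.15 (SE 0.07, adjusted p = 0.24 in limma). The exact two-sided permutation p was 0.0079, the smallest that 5 against 5 arrays allow. NDUFA8 was picked for its lack of overlap, which fixes this p, so it adds no support. Array 5, not in the fit, had 12.31 in siTRPC1 and 12.34 in control.

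NDUFS5, an accessory subunit, averaged 14.08 ± 0.17 in siTRPC1 and 13.90 ± 0.14 in control arrays (SD, n = 5 each), with a log2FC of 0.18 (adjusted p = 0.25 in limma) and 0.04 with centred arrays (adjusted p = 0.83). siTRPC1 array 4, at 14.38, stood above the other siTRPC1 arrays, which had 13.99 to 14.03. NDUFB7, an accessory subunit of the membrane arm, had 12.53, 12.53, 12.16, 12.26 and 12.35 in siTRPC1 and 12.46, 12.36, 12.63, 12.62 and 12.48 in control arrays. The groups overlapped and the log2FC was -0.15 (adjusted p = 0.36 in limma).

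NDUFV3, an accessory subunit of the NADH-binding part, had the most negative log2FC of all members, -0.66 (SE 0.20, adjusted p = 0.11 in limma), on a dim probe. It had 6.54, 6.33, 6.54, 6.24 and 7.04 in siTRPC1 and 7.27, 7.61, 6.87, 7.02 and 7.22 in control arrays, and siTRPC1 array 6 lay inside the control range. The probe was detected on 1 of 6 siTRPC1 and 4 of 6 control arrays, just the 5 of 12 that the filter requires. It thus entered mainly through the group in which it was higher. A second NDUFV3 probe was detected on no array.

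Complex II, which links the citric acid cycle to the chain, was represented by SDHA, SDHC and SDHD. The flavoprotein SDHA, which oxidises succinate, had a log2FC of 0.05 on its brighter and 0.12 on its dimmer probe, and the membrane anchor SDHC -0.03 and -0.00. SDHD, the other membrane anchor, had 10.39, 10.52, 10.71, 10.48 and 10.73 in siTRPC1 and 11.16, 11.12, 10.68, 10.59 and 10.72 in control arrays. Control arrays 1 and 2 lay above all others, and the other 3 control arrays fell within the siTRPC1 range. The log2FC was -0.29 (SE 0.11, adjusted p = 0.17 in limma), and -0.10 without control arrays 1 and 2.

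In complex III, 9 genes were tested on 13 probes, 4 with a log2FC above 0 and 5 below (median -0.01), and no probe had an unadjusted p under 0.05. With centred arrays 1 of the 9 was above 0. CYC1, the cytochrome c1 that passes electrons on, had 0.06 (95% interval -0.08 to 0.20), and the core protein UQCRC1 -0.01 (-0.16 to 0.15). The hinge protein UQCRH had 0.05 on its brightest probe. UQCRHL, a near-identical copy whose transcripts the probes may not tell apart from those of UQCRH, had -0.02. UQCR11, a small accessory subunit, had -0.08 with a wide interval (-0.38 to 0.21) on a dim probe.

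UQCRC2, the other core protein, had 9.50, 9.57, 9.41, 9.73 and 9.73 in siTRPC1 and 10.11, 10.15, 9.35, 9.46 and 9.49 in control arrays. Control arrays 1 and 2 again stood above the rest. The log2FC was -0.12 (SE 0.13, adjusted p = 0.69 in limma) and turned to 0.15 without those arrays. CYCS, the soluble cytochrome c that carries electrons to complex IV, had 8.65, 8.52, 8.39, 8.60 and 8.53 in siTRPC1 and 8.10, 8.36, 8.56, 8.64 and 8.47 in control arrays. Its log2FC was 0.11 (SE 0.12, adjusted p = 0.67 in limma) and -0.02 without control arrays 1 and 2.

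**Figure D3:**
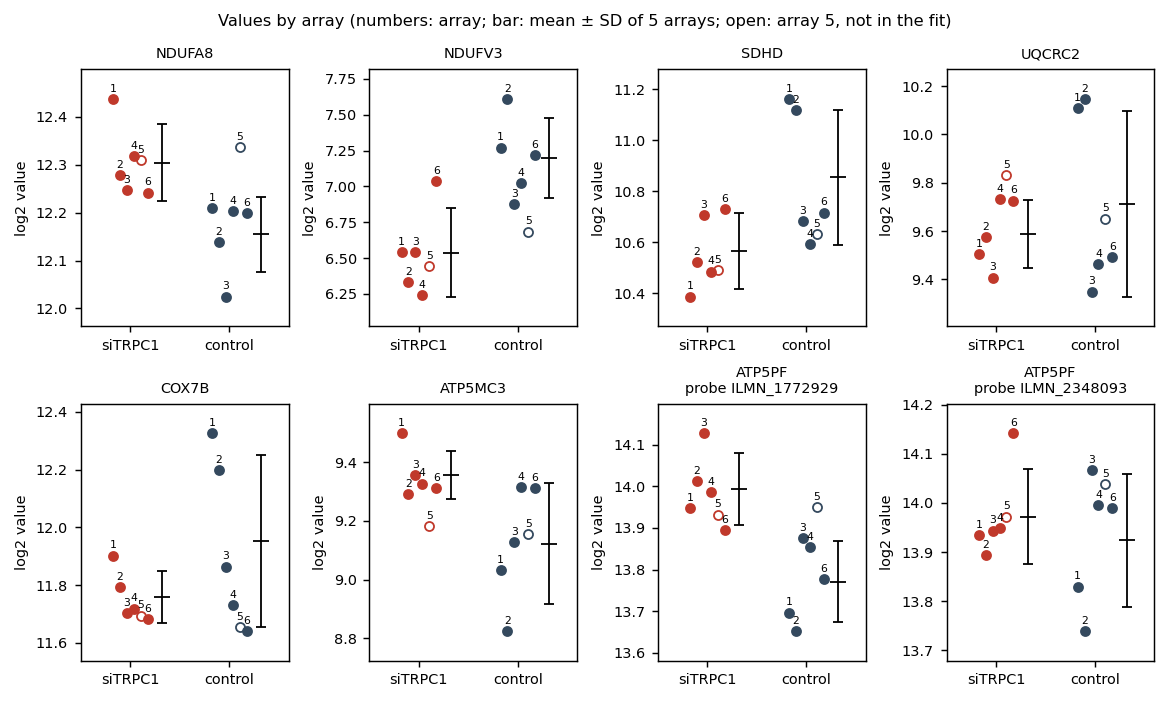
Log2 values by array are shown for 8 member probes, siTRPC1 left and control right, with the array number above each point, array 5 as an open symbol and bars for the mean ± SD of 5 arrays. Control arrays 1 and 2 stand above the others for SDHD, UQCRC2 and COX7B, and siTRPC1 lies above control without overlap for NDUFA8 and the first ATP5PF probe.

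In complex IV, 9 of 14 genes were tested, 5 with a log2FC above 0 and 4 below (median 0.03), and none had an unadjusted p under 0.05. With arrays centred on their medians 1 of the 9 was above 0, COX8A at 0.03, while COX7A2 was at -0.17 and COX6B1 at -0.21. COX5A and COX5B, which surround the catalytic core, had -0.02 and 0.03. COX6B1, which faces the intermembrane space and bridges the dimer, had -0.07 (95% interval -0.21 to 0.07). Of the isoforms known from liver, COX6A1 was at 0.04, COX7A2 at 0.05 and COX8A at 0.14 (adjusted p = 0.34 in limma). COX8A had 13.95, 13.90, 14.01, 13.66 and 13.98 in siTRPC1 and 13.64, 13.66, 13.70, 13.98 and 13.80 in control arrays, and the groups overlapped.

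COX7B, a small subunit needed for assembly of the complex, had 11.90, 11.79, 11.70, 11.72 and 11.68 in siTRPC1 and 12.33, 12.20, 11.86, 11.73 and 11.64 in control arrays. Control arrays 1 and 2 lay above all siTRPC1 arrays and the others did not. The log2FC was -0.19 (SE 0.10, adjusted p = 0.36 in limma), and 0.01 without control arrays 1 and 2.

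All 17 genes of complex V were tested, on 30 of 31 probes, with 13 log2FC above 0 and 4 below (median 0.05). With arrays centred on their medians 3 of the 17 were above 0. ATP5F1A had 0.10 (95% interval -0.03 to 0.23) and the catalytic subunit ATP5F1B 0.12 (-0.02 to 0.26). The stalk subunit ATP5F1C had 0.01 (-0.15 to 0.18). ATP5F1B was the brightest member, at 14.97 on average. Its log2FC was -0.20 with centred arrays. The peripheral stalk subunits ATP5PO and ATP5PB had -0.07 and -0.05, and ATP5IF1, the inhibitor of the enzyme, 0.01.

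The c-ring, through which protons pass, is encoded by 3 genes whose mature proteins are identical. ATP5MC1 and ATP5MC2 had 0.06 and 0.10 on their brightest probes. ATP5MC3 had 9.50, 9.29, 9.36, 9.33 and 9.31 in siTRPC1 and 9.03, 8.82, 9.13, 9.32 and 9.31 in control arrays. Of the control arrays, 1, 2 and 3 lay below all siTRPC1 arrays and 4 and 6 within their range. The log2FC was 0.23 (SE 0.10, adjusted p = 0.24 in limma), the highest of the members, and 0.11 without control arrays 1 and 2.

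ATP5PF, the coupling factor of the peripheral stalk, was measured by 3 probes that name different transcripts of the gene. The probe ILMN_1772929 had 13.95, 14.01, 14.13, 13.99 and 13.90 in siTRPC1 and 13.70, 13.65, 13.88, 13.85 and 13.78 in control arrays. On these 10 arrays every siTRPC1 value was above every control value, by 0.02 at the closest. Array 5 had 13.93 in siTRPC1 and 13.95 in control, and with it the groups overlap. The log2FC of this probe was 0.22 (SE 0.06, 95% interval 0.09 to 0.36), and its adjusted p of 0.084 in limma was the lowest of the members. Its exact two-sided permutation p of 0.0079 again follows from the lack of overlap for which it was picked. With centred arrays the log2FC was 0.11 (adjusted p = 0.45 in limma). The probe ILMN_2348093, of about the same brightness, had 13.93, 13.89, 13.94, 13.95 and 14.14 in siTRPC1 and 13.83, 13.74, 14.07, 14.00 and 13.99 in control arrays, and a log2FC of 0.05 (adjusted p = 0.77 in limma). The dimmest of the 3 probes gave 0.18 (adjusted p = 0.38 in limma).

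**Figure D4:**
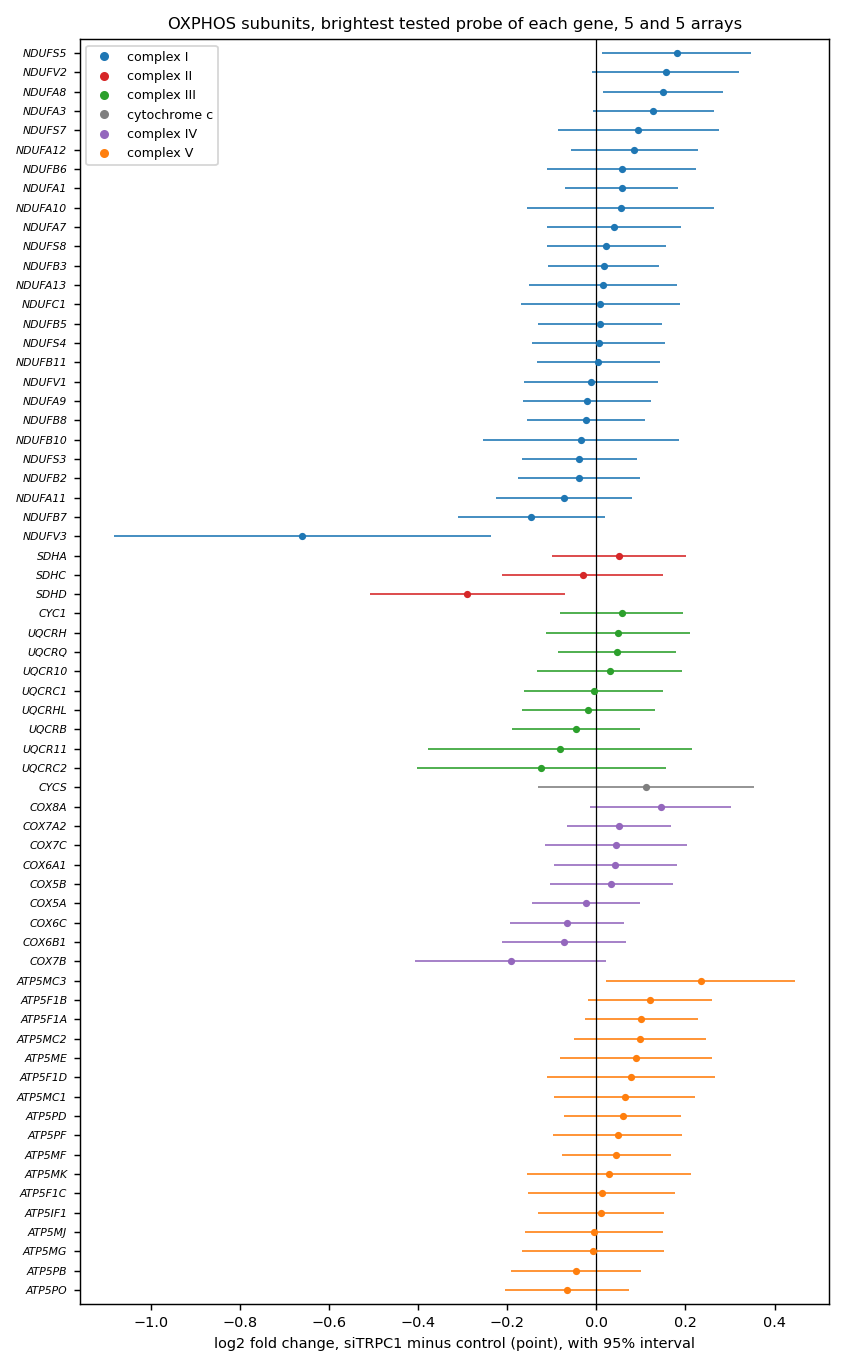
The log2FC of the brightest tested probe of each of the 65 genes is shown with its 95% interval, siTRPC1 minus control, 5 arrays each, ordered by complex. Most points lie within 0.2 of 0. The intervals of NDUFS5, NDUFA8 and ATP5MC3 lie above 0 and those of NDUFV3 and SDHD below it, none with an adjusted p under 0.05.

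Where a gene had several tested probes they mostly gave like values. For 19 such genes the probes spanned a median of 0.03 in log2FC, with the same sign for 16 and opposite signs for ATP5IF1, ATP5MF and UQCR10, all within 0.1 of 0. The widest spans were those of ATP5PF (0.17), ATP5MC2 (0.17) and ATP5MG, a subunit of the membrane part, with -0.01 on its bright probe and -0.15 on its dim one.

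With quantile normalization, the complexes did not separate the groups when averaged by array. Averages by array are not given for centred arrays. As the mean deviation of the tested genes from their 10-array means, complex I averaged 0.00 ± 0.03 in siTRPC1 and -0.00 ± 0.03 in control arrays (SD, n = 5 each), and complex IV -0.00 ± 0.04 and 0.00 ± 0.01. Complex V had 0.07, 0.03, -0.00, 0.00 and 0.03 in siTRPC1 and -0.11, -0.08, 0.01, 0.02 and 0.03 in control arrays. For complex V, the low control values were those of arrays 1 and 2, and the other 3 lay within the siTRPC1 range. Complex II had -0.05, -0.05, 0.04, -0.11 and -0.06 in siTRPC1 and 0.09, 0.11, -0.02, 0.01 and 0.03 in control arrays. Control arrays 1 and 2 were the highest here. Over the single probes, both lay outside the range of the other 10 arrays on the same side for 24 of 87 members (27.6%), 9 above and 15 below, against 22.5% of all tested probes. The subunits showed little common variation within groups, with a mean pairwise correlation of 0.03 over 10 arrays (0.00 over all tested probes), as a description of probes that share the same arrays.

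**Figure D5:**
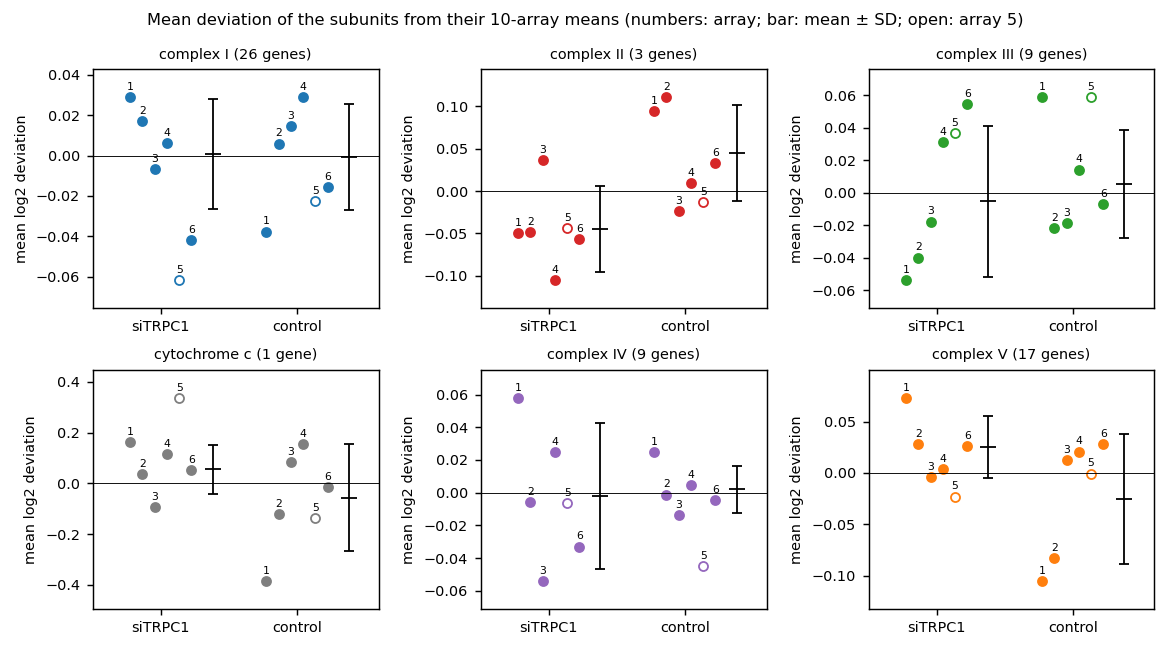
The mean log2 deviation of the tested subunits of each complex is shown by array, siTRPC1 left and control right, with the array number above each point, array 5 open and bars for the mean ± SD of 5 arrays (y scales differ). With quantile normalization the groups overlap for every complex. Control arrays 1 and 2 are the highest for complex II and the lowest for complex V.

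Of the members, 11 genes were not tested because no probe passed the filter. These were NDUFA5, NDUFB1, NDUFB4, NDUFC2, NDUFS1 and NDUFS6 of complex I and COX6A2, COX6B2, COX7A1, COX7B2 and COX8C of complex IV. The complex IV genes are isoforms known from muscle or testis, and their probes were detected on none of 12 arrays. The complex I genes are used in most tissues. Of these, NDUFS1, the large iron-sulphur core subunit, came closest to the filter with detection on 2 of 12 arrays (siTRPC1 array 4 and control array 5), and a probe of NDUFB4 was detected on 1. The groups cannot be compared for these genes at this signal.

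Other genes of the pathway, from lists of assembly factors, further subunits and regulators, gave no call either. Of 85 listed genes 67 were matched and 61 tested, and 9 had an unadjusted p under 0.05 (14.8%, against 16.9% of all tested probes). Among 46 assembly factors the median log2FC was -0.00. COA8 and COX19, both needed for complex IV, had 0.27 (adjusted p = 0.092 in limma) and 0.27 (0.14), and NDUFAF4, an assembly factor of complex I, -0.26 (0.11). COX4I1, the regulatory complex IV subunit that the symbol rule leaves out, had 0.01.

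All 12 tested regulators of mitochondrial gene expression had a log2FC below 0, against 50.7% of all tested probes, with a median of -0.12 and none called. This held for all 12 with centred arrays and with 12 arrays, and for 11 without control arrays 1 and 2, where POLRMT was at 0.00. The list was written with earlier results of these data known and carries no test. YY1 had 10.85, 10.96, 10.80, 10.94 and 10.94 in siTRPC1 and 11.12, 11.05, 11.07, 11.18 and 11.28 in control arrays. Its groups did not overlap on these arrays, and the log2FC was -0.24 (adjusted p = 0.093 in limma). Array 5 went the other way, with 11.30 in siTRPC1 and 11.06 in control, and the log2FC over 12 arrays was -0.16 (adjusted p = 0.28). GABPA, the DNA-binding part of GABP, had 8.54, 8.44, 8.22, 8.31 and 8.40 in siTRPC1 and 9.04, 9.09, 8.52, 8.37 and 8.62 in control arrays. Its log2FC was -0.34 (adjusted p = 0.20 in limma) and -0.12 without control arrays 1 and 2. GABPB1, the partner subunit of GABPA, was near 0 at -0.01 (adjusted p = 0.95 in limma), as was POLRMT at -0.02 (0.92). ESRRA, a nuclear receptor that drives mitochondrial genes, had -0.23 (adjusted p = 0.23 in limma), and the mitochondrial transcription factor TFAM -0.13 (0.40). NRF1 and PPARGC1A were detected on no array.

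The targeted gene TRPC1 had 8.73, 8.56, 8.50, 8.57 and 8.60 in siTRPC1 and 8.77, 8.74, 8.79, 8.75 and 8.82 in control arrays. The groups did not overlap on these arrays, with a log2FC of -0.18 (adjusted p = 0.34 in limma, exact two-sided permutation p = 0.0079). The study had kept these arrays by their TRPC1 values, so this is no independent check of the silencing. Array 5 had 8.85 in siTRPC1 and 9.05 in control, so that the groups overlap over all 12 arrays. Of 11 hepatocyte markers all were detected on 12 arrays and 1, TTR, was called higher (log2FC 0.24, adjusted p = 0.0498 in limma). That call was lost with centred arrays (log2FC 0.07, adjusted p = 0.72) and without control arrays 1 and 2 (0.20, adjusted p = 0.19). Of the fibroblast, endothelial, immune and muscle and nerve markers, 4 of 6, 4 of 5, 2 of 5 and 5 of 7 were detected on no array, including COL1A1, CDH5, PTPRC and MYH7. The others were detected. COL1A2, PECAM1, CD14, CD68, LYZ and TUBB3 were detected on 12 arrays, with mean levels of 8.29, 10.97, 7.56, 11.04, 12.99 and 10.64. PDGFRB was detected on 9 arrays and ACTN2 on 11. The summed immune marker level, to which LYZ gave the most, was 13.30 to 13.53 in siTRPC1 and 13.14 to 13.40 in control arrays. The hepatocyte sum was 17.50 to 17.60 and 17.45 to 17.57, and the fibroblast sum 9.11 to 9.79 and 9.17 to 9.50. The endothelial sum was 10.92 to 11.21 and 10.90 to 11.26, and the muscle and nerve sum 10.71 to 11.06 and 10.90 to 11.11. The part of these levels in the results was not tested. All samples are of the Huh7 line. In these bulk samples, fewer cells with a transcript and less of it per cell cannot be told apart.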

How the data were processed

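RNA of 6 siTRPC1 and 6 control samples was hybridised to 12 bead arrays. Intensity values are, as deposited, linear signals from which the authors subtracted background in GenomeStudio, and the detection p-value of each probe is likewise deposited. The deposited log2 values are the authors' output of lumi, quantile-normalized over 12 arrays, and served as an alternative.

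Intensities were corrected with neqc (limma 3.58.1, R 4.3.3, offset 16), quantile-normalized over 12 arrays and fitted with lmFit and eBayes with trend, condition only, on the 10 arrays the study kept, with Benjamini-Hochberg adjustment over 13102 probes at 0.05. Single values were compared by exact two-sided permutation over all 252 ways to split the arrays. Of several probes the brightest tested one stands for a gene. Gene names came from the platform annotation, in which 28098 probes have 1 symbol, 13 several and 20692 none. Pseudogenes were identified by RefSeq (GRCh38.p14).

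Members and lists were chosen with earlier results of these data known. Named were called members, the 2 highest and 2 lowest of each complex, core subunits, tissue isoforms and undetected members. NDUFA8 and ATP5PF were added after their values were seen. Alternatives covered arrays, background, scaling, filter, weights, blocks, other tests and each array left out. The fits were tested on simulated data. The number of arrays limits precision. Other tools were numpy 2.4.6, scipy 1.17.1, pandas 2.3.3 and matplotlib 3.10.9.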

Additional observations from a re-analysis of the deposited data

Results flagged for a closer look

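In groups of 5 arrays, siTRPC1 array 4 stood apart for 2 of the named members. NDUFS5 had 14.38 on this array, against 13.99 to 14.03 on the other siTRPC1 arrays, and UQCRC1 had 12.12, against 11.93 to 11.97. These are the 2 that passed Dixon's limit among 70 groups examined, of which chance passes about 1 in 20. Without siTRPC1 array 4, the log2FC of NDUFS5 was 0.10 and that of UQCRC1 -0.04.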

How the results depend on the processing

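The count of called members was 0 under every alternative that tested them, and the lowest adjusted p of a member in any of these was 0.073. Of the 25 alternatives run, the mean of the probes of a gene gave a log2FC but no adjusted p. The count of called regulators and other pathway genes was 0 as well, except for 1, NDUFAF4 (log2FC -0.26, adjusted p = 0.049 in limma), with all 12 arrays centred on their medians, a setting chosen after seeing the data. The median log2FC of the members, 0.02, was -0.065 with arrays centred on their medians, -0.051 with all 12 arrays so centred and -0.0055 without control arrays 1 and 2. Leaving out each array in turn gave 0 to 0 called members, 0 to 0 called other pathway genes, a median of 0.01 to 0.03 and a TRPC1 log2FC of -0.22 to -0.16. Of 822 values of named members under alternatives, 808 moved by less than the spread between arrays and 14 by more. All 14 came from centring, 8 of 34 with arrays centred on their medians and 6 of 34 with all 12 so centred. Another sign was found for 59, with 11 in each of these settings and 11 without control arrays 1 and 2. None of the 822 passed the test. Replicate numbers did not pair the arrays (same-number correlations -0.05 to 0.01), and with the number as a replicate block 0 members and 152 of all probes were called, against 164 without it. With adjoining arrays as a random block (correlation 0.33), 30 of all probes were called. The count over all probes was 207 with 12 arrays, 121 with centred arrays, 34 with no filter, 4 with the methods' t-test after adjustment (1908, and 6 members, before it), 52 with Rank Product and 37 to 306 with each array left out. With 5 arrays a group, each log2FC is known only to within its interval, and dim probes such as that of NDUFV3 have wide intervals.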
